A study of Mus musculus with 36 samples.

Results

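The whole retina was examined 3 days (3 D) after the optic nerve was crushed. The 4 libraries were the 2 of crushed 3 D retina and the 2 of naïve retina, chosen by the tissue, time and treatment in their titles, of 36 libraries in all from retina and from the unmyelinated (UON) and myelinated (MON) optic nerve. All mice were C57BL/6 of 2 to 4 months. Crushed mice had the nerve behind 1 eye compressed with forceps, and naïve mice (0 D) had no injury. The conjunctiva was cut to reach the nerve, and the study's methods describe no sham-operated group. Effects of the crush and of the operation therefore cannot be told apart. In each group 1 library held the pooled RNA of 2 female mice and the other that of 2 male mice, so n = 2 pools and a difference between the pools of a group is also a difference between the sexes. Pooling leaves no value for a single mouse. Retina at 2 weeks (2 W) after crush, retina 3 D after microbead injection, which raises eye pressure, and UON and MON 3 D after crush served for comparison, each again with 1 female and 1 male pool. By the study's methods retina, UON and MON were taken from the same animals, so the 3 tissues of one treatment and sex share their 2 mice.

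Retinal ganglion cells (RGCs) are the output neurons of the retina. Their cell bodies lie in the inner retina and their axons form the optic nerve, so a crush injures the cells at a distance from the retina while photoreceptors, bipolar cells and amacrine cells keep their processes. An injured axon signals back to the nucleus through the kinase DLK and the transcription factor JUN, and injured neurons switch on a group of genes that includes Atf3, Sox11 and Sprr1a. Mouse RGCs mostly die in the weeks after a crush, and Müller glia and microglia of the retina react to the injury.

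The deposited gene counts came to between 31.4 M and 43.8 M in these 4 libraries. In these 4 libraries the most frequent count from 1 to 8 was 4, while over all 36 libraries it was 1. The value of 4 was taken as the counts that a read pair adds, so a limit of 3 read pairs is 12 counts. Levels are given as CPM, the count of a gene divided by the library total in M (mega) after scaling by the trimmed mean of M-values (TMM), and differences as log2 fold changes with a standard error (SE). This SE is the size of the log2 fold change divided by the square root of the F statistic of its test. Rod, cone, bipolar, amacrine and Müller markers were present in every library, and the sex-linked genes matched the labelled sex in 4 of 4. Markers of neutrophils and monocytes summed to 3.12 to 5.27 CPM, with no separation of crushed from naïve pools. In whole tissue, fewer cells of a type and less RNA per cell cannot be told apart.

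At 3 D after crush the genes called higher included 3 neuronal injury genes. By edgeR's quasi-likelihood test, at an adjusted p below 0.05 with a log2 difference larger than 1 in size, 4 of 22671 genes were called higher (0.0176%) and 1 lower (0.00441%). The higher genes were Sprr1a, Ecel1, Sox11 and H3c14, and the lower gene was Elfn1. Without adjustment, 1437 genes had p under 0.05. DESeq2, fitted to the same 6 libraries of naïve, crushed 3 D and crushed 2 W retina with the same terms, called 89 of 20956 genes higher (0.425%) and 47 lower (0.224%) by the same limits. Of these 136 genes, 133 had an unadjusted p under 0.05 by edgeR, 19 had an edgeR adjusted p under 0.1, and all 5 edgeR calls were among them. In the text below "rose" and "fell" are kept for the edgeR calls, and a gene called by DESeq2 alone is named as such. None of the 5 edgeR calls held in a fit of all 12 retina libraries, where the adjusted p of these genes ran from 0.434 to 0.885. The median log2 fold change of all genes tested was 0.01. Both crushed pools lay above both naïve pools for 19.6% of all genes tested and below them for 19.1%, which is the background for the pool counts given for each gene list. The lists were chosen with earlier results of these data known, so their counts and medians describe the members and are no independent support.

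The RGC markers were lower as a group. Of 15 markers tested, 12 were lower in both crushed pools than in both naïve pools and 0 were higher in both, with a median log2 fold change of -1.02. Their summed level was 1075 CPM in the naïve female pool and 956 CPM in the naïve male pool, against 585 and 502 CPM in the crushed female and male pools. None was called by edgeR, while 11 had an unadjusted p under 0.05 and 5 were called lower by DESeq2. Rbpms2, an RNA-binding protein gene that marks RGCs, had 45.9 and 37.3 CPM in the naïve female and male pools and 13.5 and 10.1 CPM in the crushed pools. The pools did not overlap, and the log2 fold change was -1.84 (SE 0.36, edgeR adjusted p = 0.332, DESeq2 adjusted p = 7.05e-06). Chrna6 and Chrnb3 encode subunits of nicotinic acetylcholine receptors. Chrna6 had 131 and 126 CPM in naïve and 54.7 and 38.7 CPM in crushed female and male retina (log2 fold change -1.48, SE 0.15, edgeR adjusted p = 0.0746, DESeq2 adjusted p = 1.68e-12). Chrnb3 had 64.2 and 53.8 against 24 and 22.7 CPM, again with no overlap (DESeq2 adjusted p = 1.03e-05). The other DESeq2 calls were Tppp3, a tubulin polymerisation gene, with 175 and 146 against 86.9 and 59.1 CPM, and Nrn1, the neurite growth gene neuritin, with 45.4 and 38.1 against 24.6 and 8.71 CPM.

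The remaining markers varied widely. Rbpms, the RGC marker most used for counting these cells, had 44.9 and 38 CPM in naïve and 24 and 21.8 CPM in crushed female and male retina, a mean of 41.4 ± 4.89 against 22.9 ± 1.58 CPM (SD, n = 2). This log2 fold change of -0.85 (SE 0.24) passed neither test (edgeR adjusted p = 0.589, DESeq2 adjusted p = 0.0798). Sncg, gamma-synuclein, had 255 and 204 against 124 and 112 CPM. Its adjusted p by DESeq2 was 1.43e-06, but its log2 fold change of -0.95 was smaller than 1. Among the POU-domain factors that specify RGCs, Pou4f1 had 13.5 and 10.6 against 6.11 and 5.69 CPM and Pou4f2 5.73 and 5.73 against 2.73 and 0.939 CPM, with no overlap for either. Pou4f3 did overlap, with 4.9 and 3.11 CPM in naïve against 1.77 and 4.04 CPM in crushed pools. Tubb3, neuronal beta-tubulin, had 176 and 158 against 119 and 98.6 CPM (log2 fold change -0.62, SE 0.12). Thy1, a surface glycoprotein, had 15.6 and 37.5 CPM in naïve and 25.1 and 21.7 CPM in crushed pools, so the naïve pools enclosed the crushed ones. Slc17a6, the vesicular glutamate transporter of RGCs, was at 72.4 and 79.7 CPM before and 66.8 and 87.4 CPM after crush (log2 fold change 0.01, SE 0.15).

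**Figure D1:**
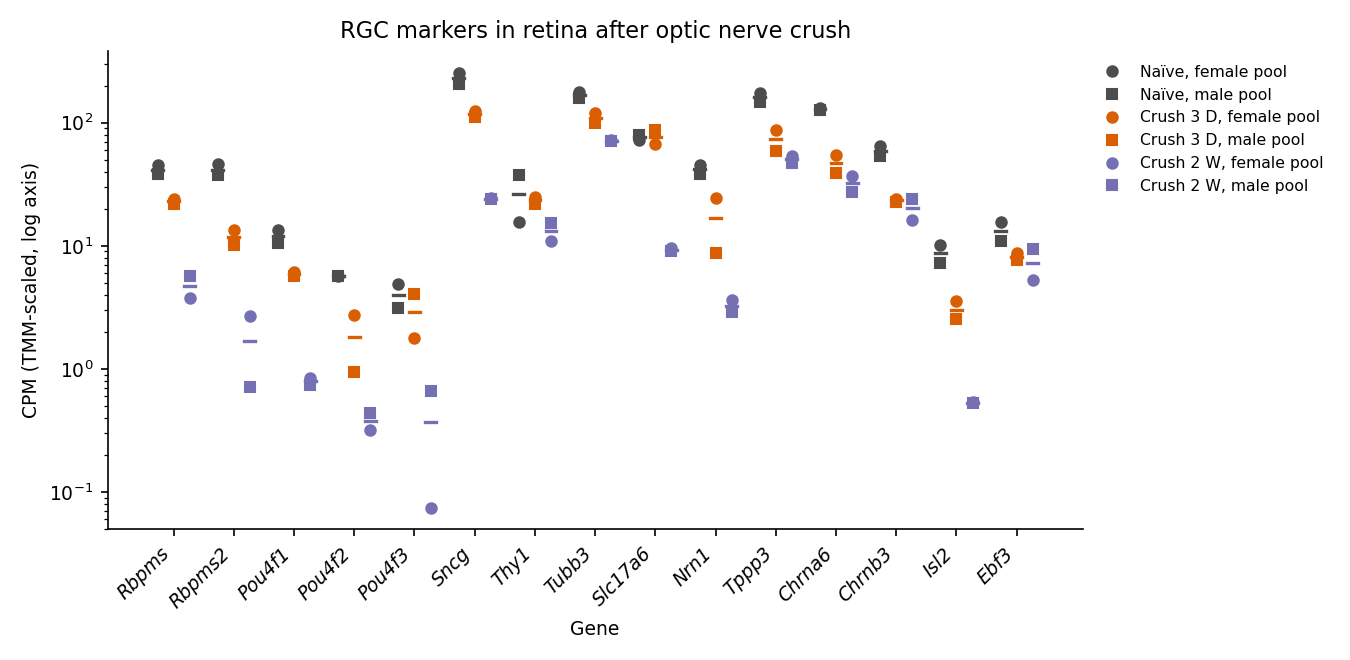
Levels of RGC markers in retina, in CPM on a log axis, for the female and male pool of each group. For Rbpms2 and Chrna6 both crushed 3 D pools sit below both naïve pools, whereas the Slc17a6 pools at 3 D lie on either side of the naïve pools and are at 9.57 and 9.03 CPM at 2 W.

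Genes of the axonal cytoskeleton and excitability, measured in the whole retina and so not in RGCs alone, were lower by smaller amounts. Of 18 axonal cytoskeleton genes tested, 14 were lower in both crushed pools and 1 was higher, with a median log2 fold change of -0.40. The neurofilament subunits differed in size of change: Nefh, the heavy chain, had 74.4 and 78.1 CPM in naïve and 36.2 and 24.8 CPM in crushed pools (log2 fold change -1.35, SE 0.18), while Nefl, the light chain, had 807 and 765 against 413 and 466 CPM (-0.84, SE 0.13) and Nefm, the medium chain, 152 and 149 against 101 and 106 CPM (-0.54, SE 0.12). Nefh was called by DESeq2 (adjusted p = 1.7e-07), and no gene of the list was called by edgeR. Map1b, a microtubule-associated protein gene, was the exception, with 1100 and 1238 CPM in naïve and 1396 and 1296 CPM in crushed pools. Of 14 genes for excitability and nodes of Ranvier, 7 were lower in both crushed pools and 0 higher, with a median of -0.29. That median was -0.50 without the crushed female pool and ran from -0.33 to -0.23 without another naïve or crushed pool. The largest loss among these 14 genes was that of Scn4b, a sodium channel subunit gene, from 4.67 and 10 CPM to 2.7 and 0.482 CPM, which neither test called.

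RGC subtype genes were mixed. Of 20 tested, 6 were lower in both crushed pools and 1 was higher, with a median of -0.32 and 0 calls by either tool. Opn4, melanopsin of the intrinsically photosensitive RGCs, had 5.7 and 5.43 CPM in naïve and 2.94 and 5.05 CPM in crushed pools. Eomes, a factor of the same RGC class, had 5.49 and 5.02 against 3.22 and 2.82 CPM. Igf1 had 25.7 and 30 CPM in naïve and 24.2 and 26.3 CPM in crushed pools and so overlapped. Several genes of this list are also expressed by other retinal cells, and their levels here are those of the whole retina.

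The axon injury and regeneration genes lay in the opposite direction. Of 22 tested, 18 were higher in both crushed pools and 2 lower, with a median log2 fold change of 0.61. This median was 0.92 without the crushed female pool and 0.78 without the naïve female pool. It was 0.41 without the naïve male pool and 0.41 without the crushed male pool. EdgeR called 3 higher and 0 lower, and DESeq2 called 7 higher. This list too was chosen with earlier results known, so these counts describe its members only. Sprr1a, a small proline-rich protein gene known from regenerating neurons (chromosome 3 from 92483952 to 92485895, GRCm38), was at 0 counts in both naïve pools and at 606 and 1051 counts in the crushed female and male pools, which is 18.8 and 26.7 CPM. Against a floor of 12 counts per library this is at least 66.4-fold higher in females and at least 80.6-fold higher in males (edgeR adjusted p = 0.0115). Ecel1, an endopeptidase gene induced in damaged neurons, rose from 0.589 and 0.827 CPM to 45.3 and 88.2 CPM, a ratio of means of 94.3 (log2 fold change 6.52, SE 0.34, edgeR adjusted p = 0.0115). The deposited FPKM of Ecel1 were 0.158 and 0.853 in naïve and 14.6 and 28.1 in crushed pools. Sox11, a transcription factor gene of developing and regenerating neurons, rose from 2.38 and 3.58 CPM to 17.7 and 31.1 CPM (log2 fold change 3.01, SE 0.24, edgeR adjusted p = 0.0385). Its adjusted p was 0.0594 with only the 4 naïve and crushed libraries fitted and 0.0678 without the sex term.

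The other DESeq2 calls of this list were Atf3, Tnfrsf12a, Adcyap1 and Tubb6. Atf3, the stress-induced transcription factor gene, had 15 and 18 CPM in naïve and 47.8 and 98.2 CPM in crushed pools (log2 fold change 2.11, SE 0.31, edgeR adjusted p = 0.165, DESeq2 adjusted p = 4.15e-11). Tnfrsf12a, the receptor for the cytokine TWEAK, had 19 and 16 against 47.3 and 78.3 CPM. Adcyap1, which encodes the neuropeptide PACAP, had 3.77 and 4.63 against 10.8 and 13.8 CPM. In all 3 the pools were separate. Tubb6, a beta-tubulin gene, had 2.9 and 0.413 against 6.72 and 8.71 CPM, with unequal naïve pools. Jun had 85.7 and 80.4 CPM in naïve and 114 and 143 CPM in crushed pools, and Gap43, a growth cone gene, 58.9 and 53.8 against 63.3 and 89.4 CPM. Neither was called by either tool, and Csrp1 with 14 and 12.7 against 11.3 and 14 CPM did not separate. The male crushed pool was above the female one for Sprr1a, Ecel1, Sox11, Atf3, Tnfrsf12a, Jun and Gap43. The list median was 0.83 between male pools and 0.34 between female pools, a difference that rests on 1 pool of each sex and was not tested.

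**Figure D2:**
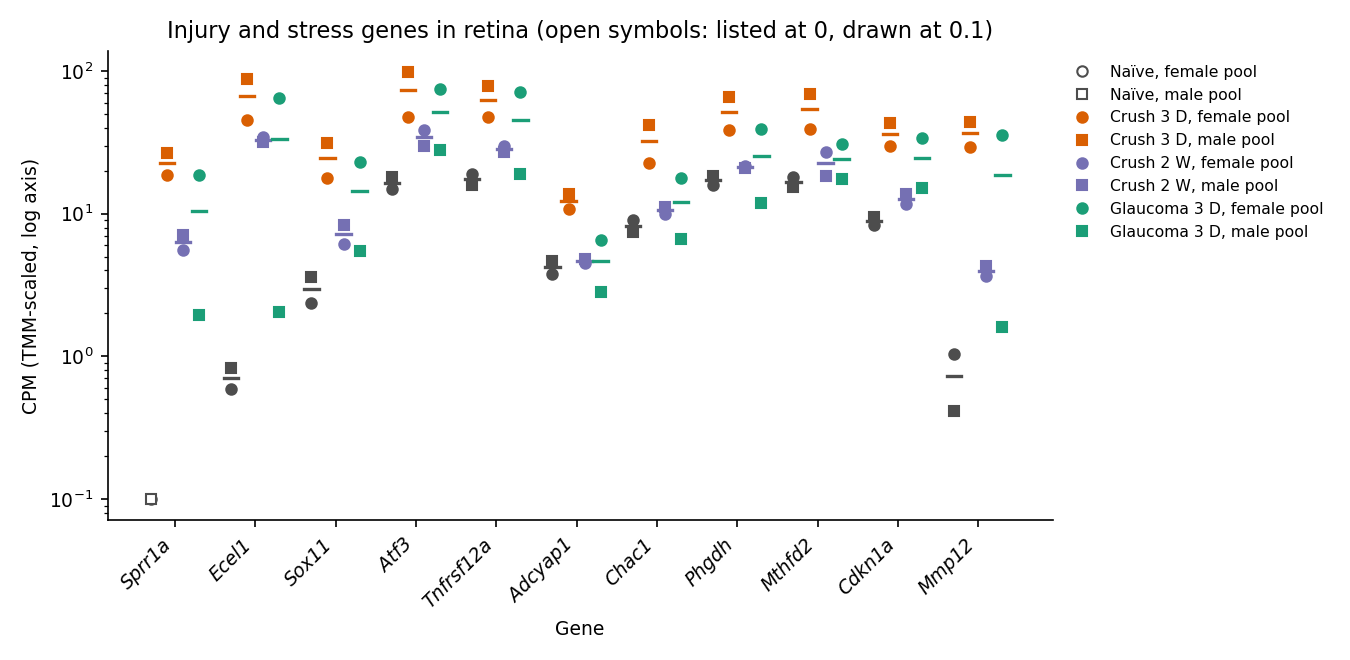
Levels of axon injury genes, integrated stress response genes, Cdkn1a and Mmp12 in retina, in CPM on a log axis. The female and male pool of each group are drawn, with a level of 0 at 0.1. Sprr1a, Ecel1 and Sox11 are far higher in both crushed 3 D pools than in both naïve pools, and the 2 glaucoma 3 D pools lie wide apart.

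The promoters of Sprr1a, Atf3 and Chac1 are shown because these genes stood high after crush and hold a match to a motif of stress-activated factors of the JUN, ATF and C/EBP families. Each window runs from 250 bases before to 50 bases after the annotated start (RefSeq, GRCm38.p6), and capitals mark the match as it reads on the strand of the gene. Sprr1a (chr3:92485832-92486131, minus strand) holds the AP-1 letters TGAGTCA at 146 and 116 bases before its start. Atf3 (chr1:191183284-191183583, minus strand) and Chac1 (chr2:119350992-119351291, plus strand) hold the C/EBP-ATF element TGATGNAAN on the opposite strand, at 111 and 194 bases before the start.
Sprr1a: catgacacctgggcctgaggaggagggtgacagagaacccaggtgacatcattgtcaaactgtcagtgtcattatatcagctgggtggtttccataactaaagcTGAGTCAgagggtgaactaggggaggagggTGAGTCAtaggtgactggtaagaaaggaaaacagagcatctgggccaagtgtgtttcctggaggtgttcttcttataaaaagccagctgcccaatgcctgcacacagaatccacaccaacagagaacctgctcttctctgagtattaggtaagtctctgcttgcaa
Atf3: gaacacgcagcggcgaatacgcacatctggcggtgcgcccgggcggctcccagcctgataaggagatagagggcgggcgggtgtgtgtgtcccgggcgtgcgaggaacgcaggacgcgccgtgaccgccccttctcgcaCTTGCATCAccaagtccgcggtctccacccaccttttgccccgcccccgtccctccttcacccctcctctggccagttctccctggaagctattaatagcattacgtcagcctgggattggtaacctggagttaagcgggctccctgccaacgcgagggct
Chac1: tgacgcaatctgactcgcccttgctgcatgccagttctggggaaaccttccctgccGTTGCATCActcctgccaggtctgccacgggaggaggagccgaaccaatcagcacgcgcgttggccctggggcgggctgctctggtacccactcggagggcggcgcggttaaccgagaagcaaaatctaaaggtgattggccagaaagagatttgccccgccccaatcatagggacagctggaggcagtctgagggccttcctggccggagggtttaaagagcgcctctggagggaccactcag

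Both strands were searched for TGACTCA or TGAGTCA (AP-1), TGACGTCA (cAMP response element) and TGATGNAAN. Of 22 axon injury genes, 16 had a promoter in the table, and 1 each (6.25%) held AP-1 (Sprr1a), the cAMP response element (Ucn) and the C/EBP-ATF element (Atf3). Of 22 integrated stress response genes, 20 had a promoter, and 7 of these (35%) held the C/EBP-ATF element: Aars, Asns, Chac1, Nupr1, Slc7a11, Trib3 and Vldlr. Ddit3 held AP-1 and Ppp1r15a the cAMP response element. Of 24 immediate early genes, 18 had a promoter, and Btg2 and Dusp1 held the cAMP response element. AP-1 and the C/EBP-ATF element were each found in 0 of the immediate early genes. Over all 27025 genes with a promoter, 5.95% held AP-1, 2.03% the cAMP response element and 4.5% the C/EBP-ATF element. These matches describe letters in the window and not binding. They do not depend on crush, and the lists and motifs were chosen with earlier results known. The shares were not tested.

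Genes of the integrated stress response, in which the factor ATF4 raises genes of amino acid supply when translation is slowed, were mostly higher. Of 21 genes tested, all 21 had a log2 fold change above 0, 17 were higher in both crushed pools and 0 lower, with a median of 0.62. The median was 0.43 without the crushed male pool and 0.84 without the crushed female pool. It was 0.57 without the naïve male pool and 0.76 without the naïve female pool. EdgeR called none and DESeq2 called 3. Chac1, which degrades glutathione, had 8.96 and 7.44 CPM in naïve and 22.5 and 41.7 CPM in crushed female and male pools (log2 fold change 1.92, SE 0.30, edgeR adjusted p = 0.193, DESeq2 adjusted p = 2.96e-07). Phgdh, the entry enzyme of serine synthesis, had 16 and 18.4 against 38.3 and 65.6 CPM (1.57, SE 0.22), and Mthfd2, a mitochondrial folate enzyme gene, 18.1 and 15.3 against 38.9 and 69.5 CPM (1.70, SE 0.33). For each of these the pools did not overlap and the male crushed pool was the highest. Asns, asparagine synthetase, had 84.3 and 85.4 against 116 and 174 CPM, and Ddit3, the factor CHOP, 85.6 and 88.3 against 115 and 169 CPM, both with a log2 fold change smaller than 1. Atf4 itself had 189 and 220.1 CPM in naïve and 211 and 263 CPM in crushed pools, which overlapped. The list median was 0.90 between male and 0.45 between female pools. Outside the list, and named after its values were seen, Cars, a cysteinyl-tRNA synthetase gene, had 64.8 and 55.6 against 127 and 147 CPM (DESeq2 adjusted p = 5.49e-08), and Aldh18a1, a proline synthesis gene, 26.3 and 29.9 against 69.1 and 81.9 CPM (DESeq2 adjusted p = 3.83e-07).

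Genes of the injury kinase and cell death pathways lay in both directions. Of 17 genes of the DLK and axon degeneration pathway, 5 were higher and 6 lower in both crushed pools (median -0.11). Map3k12, which encodes DLK, had 57.7 and 68.2 CPM in naïve and 74.5 and 75.2 CPM in crushed pools. Sarm1, the axon degeneration NADase gene, had 92.4 and 98.4 against 129.9 and 116 CPM, and Nmnat2, the axon survival NAD synthase gene, 29.7 and 35.1 against 24.9 and 19 CPM; neither tool called either gene. Of 13 p53 targets tested, 3 were higher in both crushed pools and 0 lower (median 0.12). Among them Cdkn1a, the cell cycle inhibitor p21, had 8.39 and 9.48 CPM in naïve and 29.9 and 42.9 CPM in crushed pools, a mean of 8.94 ± 0.772 against 36.4 ± 9.22 CPM (SD, n = 2). Its log2 fold change of 2.01 (SE 0.19) missed the edgeR threshold (adjusted p = 0.0574) and passed that of DESeq2 (adjusted p = 1.16e-12). Of 18 BCL2 family and caspase genes, 9 were higher and 4 lower in both crushed pools, with a median of 0.19, which was 0.57 without the naïve female pool and 0.43 without the crushed female pool. Hrk, a pro-apoptotic BH3-only gene of neurons, had 1.34 and 2.29 against 4.62 and 5.61 CPM, with no call. Bmf, another BH3-only gene, was called lower by DESeq2 with 4.76 and 4.02 against 1.74 and 1.14 CPM (adjusted p = 0.0449).

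Genes of gp130 cytokine signalling, through which STAT3 is activated in Müller glia and RGCs, were higher in part. Of 18 tested, 11 were higher in both crushed pools and 1 lower, with a median of 0.43, and 0.72 without the naïve female pool. EdgeR called 0 and DESeq2 3, and edgeR called 1 without the naïve female pool and 2 without either the naïve or the crushed male pool. Among the receptors, Osmr had 3.56 and 4.66 CPM in naïve and 11.5 and 11.1 CPM in crushed pools (log2 fold change 1.47, SE 0.25), and Il6st, gp130 itself, 45.4 and 55.7 against 75.2 and 70.6 CPM. The transcription factor gene Stat3 had 42.9 and 50.5 against 109 and 91.3 CPM (1.10, SE 0.15, edgeR adjusted p = 0.143, DESeq2 adjusted p = 1.33e-06). Downstream, Cebpd, a C/EBP factor gene, had 11.2 and 11.4 against 40.7 and 42.2 CPM, with close pools in both groups (1.88, SE 0.17, edgeR adjusted p = 0.0507, DESeq2 adjusted p = 1.09e-13). Socs3, the feedback inhibitor, had 2.97 and 2.12 against 6.32 and 5.46 CPM and was not called. Of the ligands, Lif had 0.636 and 0.331 against 1.18 and 2.03 CPM and Cntf 4.27 and 3.91 against 6.01 and 7.29 CPM, neither called. Edn2, endothelin 2, had 2.22 and 0.276 against 11 and 3.4 CPM with no call, and Fgf2, a photoreceptor survival factor, 0.401 and 0.248 against 3.32 and 0.863 CPM (DESeq2 adjusted p = 0.00442). For both genes the naïve male pool lay under the limit of 12 counts.

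Reactive glia genes were higher in most cases, while Müller identity genes had a median near 0. Of 12 PAN-reactive genes tested, the genes common to many forms of glial reaction, 10 were higher in both crushed pools and 0 lower, with a median of 1.25. DESeq2 called Gfap, Serpina3n, Osmr and Cxcl10, and edgeR none. Serpina3n, a secreted protease inhibitor gene, had 2.22 and 1.79 CPM in naïve and 22.6 and 10 CPM in crushed pools (log2 fold change 2.96, SE 0.37, edgeR adjusted p = 0.128, DESeq2 adjusted p = 1.16e-12). Gfap, the glial intermediate filament, had 22.3 and 20.7 against 35.1 and 52.8 CPM (1.02, SE 0.23), and Vim, vimentin, 94.6 and 80.4 against 121 and 127 CPM with no call. Without the crushed female pool the median of this list was 0.62. Of 11 A1 genes 7 were higher in both crushed pools and 1 lower (median 0.74, and 0.42 without the crushed female pool), and of 11 A2 genes 6 were higher and 1 lower. The A2 median of 0.26 was 0.65 without the naïve female pool, 0.41 without the crushed male pool and 0.12 without the crushed female pool. Serping1, a complement inhibitor of the A1 list, had 7.19 and 7.11 against 25.1 and 13.5 CPM (DESeq2 adjusted p = 0.000793). Of 12 Müller identity genes, 4 were higher and 2 lower in both crushed pools (median 0.06). The lower ones were Glul, glutamine synthetase, with 1303 and 1229 against 1048 and 994 CPM, and Rlbp1, a retinoid carrier, with 527 and 526 against 426 and 336 CPM, neither called.

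Immediate early genes, the fast transcription factor genes, were moderately higher. Of 24 tested, 12 were higher in both crushed pools and 2 lower (median 0.46). Egr1, a zinc finger factor, had 20 and 19.6 CPM in naïve and 49.4 and 47.7 CPM in crushed pools (2.47 times higher between female and 2.44 times between male pools, edgeR adjusted p = 0.0953, DESeq2 adjusted p = 1.7e-07), with pools of both groups very close together. Fosl1, a partner of JUN, was at 0 in both naïve pools and at 0.465 and 1.93 CPM in crushed pools (DESeq2 adjusted p = 0.00323). Fos had 31.7 and 25.5 against 48.4 and 46.3 CPM, a log2 fold change of 0.74. Of 10 YAP and TAZ targets, 5 were higher and 1 lower in both crushed pools, with a median of 0.34, which was 0.36 between female pools, 0.04 between male pools and 0.06 without the crushed female pool. Ccn1, a matricellular gene, had 4.79 and 4.08 against 9.45 and 15.1 CPM (DESeq2 adjusted p = 0.018), while its relative Ccn2 had 26.5 and 28.6 against 29.3 and 37 CPM.

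Complement and phagocyte genes were higher, with larger list medians between female than between male pools. Of 17 complement genes tested, 8 were higher in both crushed pools and 0 lower (median 0.71), and DESeq2 called C1qb, C1qc and C4b. C1qb, a chain of the initiating complex, had 14.1 and 13.4 CPM in naïve and 42.5 and 19.8 CPM in crushed female and male pools (log2 fold change 1.11, SE 0.27). C4b had 4.27 and 5.29 against 20.3 and 9.75 CPM (1.59, SE 0.35). C3 overlapped, with 1.11 and 2.26 against 7.65 and 2.03 CPM. The list median was 1.02 between female pools, 0.30 between male pools, 0.50 without the crushed female pool, 1.46 without the crushed male pool and 1.32 without the naïve male pool. Of 14 phagocytic microglia genes, 7 were higher in both crushed pools and 0 lower (median 1.20, and 0.61 without the crushed female pool). The median of these genes was 0.93 between female and 0.41 between male pools, but single genes went the other way. Cd68, a lysosomal gene, had 2.55 and 1.98 against 10.4 and 11.3 CPM (DESeq2 adjusted p = 3.46e-06), and Lgals3, galectin 3, 2.59 and 4 against 7 and 11.9 CPM (DESeq2 adjusted p = 0.0085), and both were higher in the male than in the female crushed pool. Lyz2, lysozyme, rested on the crushed female pool alone, with 3.49 and 4.96 CPM in naïve and 57.5 and 6.42 CPM in crushed pools.

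Homeostatic microglia genes and interferon-stimulated genes were higher in part. Of 13 tested, 5 were higher in both crushed pools and 0 lower (median 0.39). Tmem119 had 2.97 and 4.44 against 3.87 and 5.91 CPM and P2ry12, a purinergic receptor of resting microglia, 1.41 and 1.85 against 1.77 and 1.14 CPM, so both overlapped. Of 22 interferon-stimulated genes, 17 were higher in both crushed pools and 1 lower (median 0.46), with 0 calls by either tool. Ifit1 had 3.44 and 4.74 against 7.56 and 9.09 CPM and Usp18, a brake on interferon signalling, 2.1 and 3.28 against 7.56 and 6.09 CPM. Of 14 chemokine and cytokine genes, 5 were higher and 2 lower in both crushed pools, and only Cxcl10 was called by DESeq2, at 0 and 0.221 against 1.12 and 1.35 CPM. The part of pool composition and sex in the female excess of complement genes and the male excess of neuronal injury genes was not tested.

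**Figure D3:**
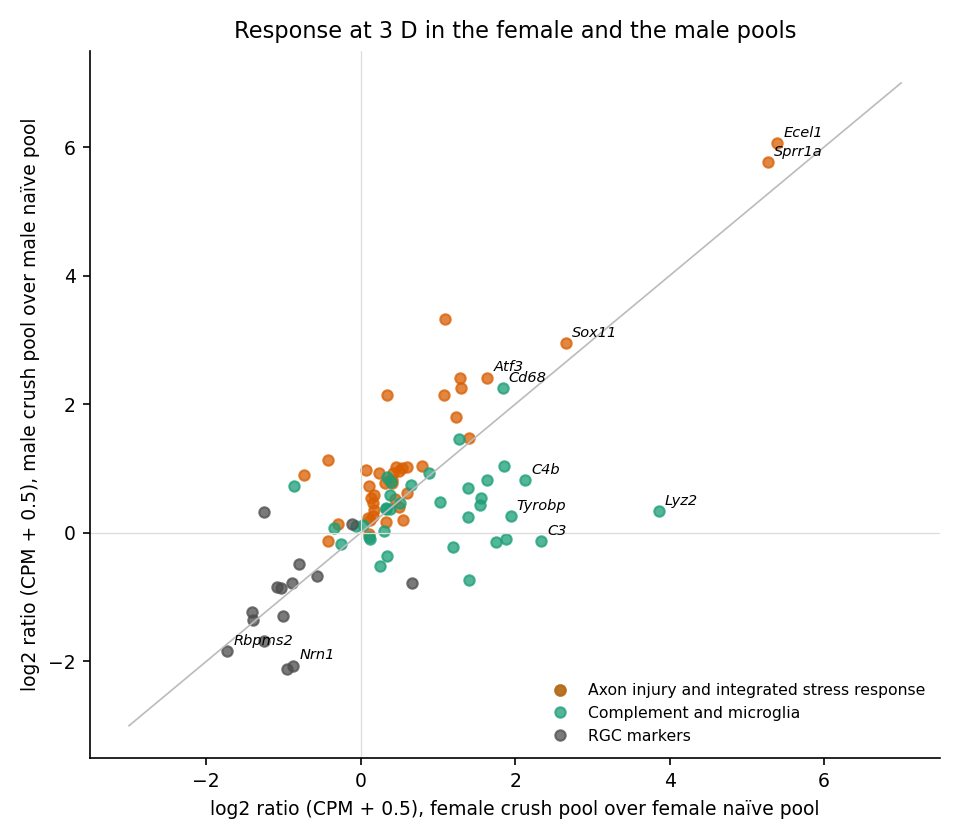
The log2 ratio of crushed over naïve CPM (0.5 CPM added to both) in the male pools against that in the female pools, for members of the named lists with a mean of at least 1 CPM. RGC markers lie below 0 on both axes apart from Slc17a6, Thy1 and Pou4f3, the injury genes Ecel1 and Atf3 lie above the diagonal, and Lyz2 and C4b lie below it.

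Markers of other retinal neurons had medians near 0. The medians were -0.14 for 12 rod genes, -0.06 for 10 cone genes, -0.06 for 11 bipolar genes and -0.14 for 12 amacrine and horizontal cell genes, with 0 calls by either tool in these 4 lists. Of the rod genes 7 were lower in both crushed pools and 1 was higher, 5 were lower at an unadjusted p under 0.05, and edgeR called 1 lower without the crushed male pool. Of the cone and of the bipolar genes 4 each were lower in both crushed pools and 0 higher, and of the amacrine and horizontal cell genes 5 were lower and 1 was higher. The 11 housekeeping genes had a median of -0.12. Endothelial, pericyte and pigment epithelium genes had medians of 0.12, 0.02 and -0.15, and 5 blood genes 0.45. Matrix, fibroblast, muscle and lens genes had medians of 0.12, 0.43, 0.25 and 0.27, heat shock, cholesterol synthesis and neurotrophic genes -0.05, -0.07 and 0.08, and neutrophil and monocyte genes 0.25, with 0 calls by either tool. With 1 library left out, the median of neutrophil and monocyte genes ran from -0.70 to 0.83. That of pigment epithelium genes ran from -0.95 to 0.38 and that of endothelial genes from -0.09 to 0.46. In these lists 1 pool decides the sign. The median of fibroblast genes ran from 0.28 to 1.07 and that of blood genes from 0.12 to 0.86, so 1 pool changes only the size. All 5 blood genes tested were higher in both crushed pools than in both naïve pools. Of 7 fibroblast genes, 3 were higher in both crushed pools and 0 lower. The 4 tested genes of ocular surface epithelium had a median of -1.40 at a summed level of 0.99 to 4.97 CPM, which was 0.68 without the naïve female pool, -2.50 without the naïve male pool and -7.75 without the crushed female pool, and DESeq2 called Krt5, which was at 0.778 and 0.331 CPM in naïve and at 0 in crushed pools. Myelin genes, which can enter with the nerve head, had a summed level of 135 and 126 CPM in naïve and 120.1 and 106 CPM in crushed pools (median -0.50, and -0.17 without the crushed male pool). The endothelin and FGF2 list had a median of 0.21, the NRF2 and metallothionein list 0.07 and the cell cycle list 0.16, and these ran from 0.04 to 0.36, 0.06 to 0.27 and 0.14 to 0.29 with 1 library left out. Hmox1 and Mt2, genes against oxidative and metal stress, were the 2 of 11 NRF2 and metallothionein genes called by DESeq2, with 8.11 and 5.6 against 16.4 and 18.9 CPM and 19.4 and 21.8 against 49.7 and 37.5 CPM. Of 12 cell cycle genes tested DESeq2 called 1, Knstrn, a kinetochore gene, lower with 6.67 and 7.53 against 2.79 and 2.59 CPM (adjusted p = 0.0386).

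**Figure D4:**
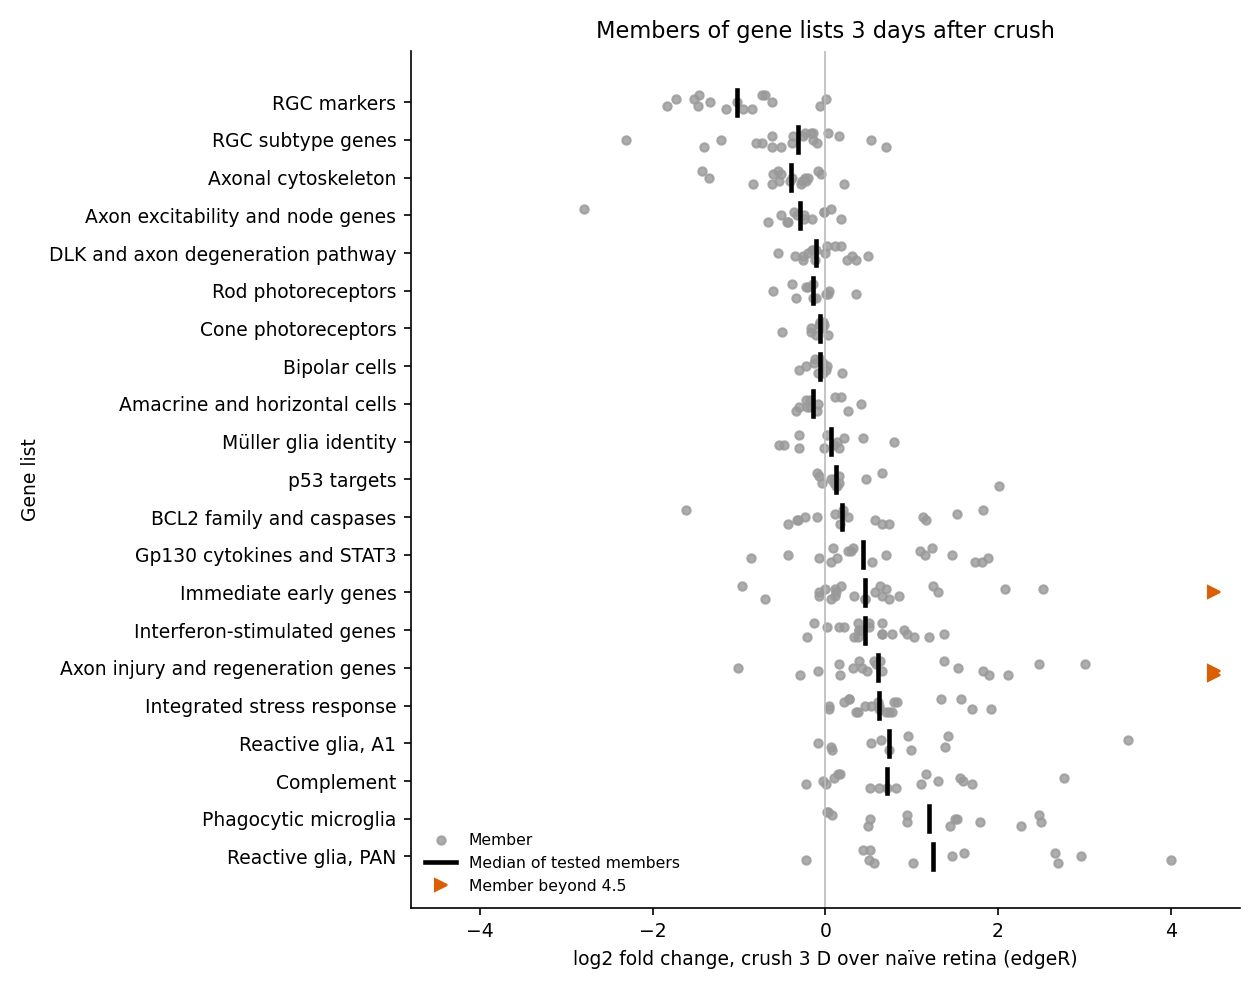
The log2 fold change of crushed 3 D over naïve retina for each member tested of a selection of the gene lists. The list median is a bar, and values beyond 4.5 are drawn at that limit. Lists not drawn include ocular surface epithelium genes (median -1.40) and chemokine and cytokine genes (median 0.76). The chemokine and cytokine median was 0.18 at a minimum of 1 CPM in 2 libraries. It ran from 0.30 to 0.57 with 1 naïve or crushed 3 D library left out. RGC markers are centred at -1.02, PAN-reactive glia genes at 1.25 and rod genes at -0.14, beside a median of 0.01 for all genes tested.

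The 2 edgeR calls outside the injury list have limits that the files show. Elfn1, a synaptic adhesion gene (chromosome 5 from 139907943 to 139974722, GRCm38), fell from 51.8 and 21.4 CPM to 0.992 and 0.939 CPM (log2 fold change -5.07, SE 0.39, edgeR adjusted p = 0.0385, and 0.0764 without the sex term). Its deposited FPKM fell by less, from 11.6 and 5.63 to 2.14 and 1.97, and its level was 37.7 and 12 CPM at 2 W. The gene model Gm43704, which overlaps Elfn1, had 0.165 and 0.276 CPM in naïve and 0.031 and 0.102 CPM in crushed pools. H3c14, a histone H3 gene, had 0 counts in both naïve pools and 11.7 and 17.8 CPM in crushed pools (edgeR adjusted p = 0.0186). The gene model Gm20634 overlaps it on the same strand and had 23.5 and 16.2 CPM in naïve and 0.775 and 0 CPM in crushed pools. Their summed level was 23.5 and 16.2 CPM before and 12.5 and 17.8 CPM after crush, so 1 gene model was high where the other was at or near 0.

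Some genes outside the lists came close to the edgeR threshold and are named after their values were seen. Mmp12, a macrophage elastase gene, had 1.04 and 0.413 CPM in naïve and 29.3 and 44.1 CPM in crushed pools (log2 fold change 5.64, SE 0.49, edgeR adjusted p = 0.0507, DESeq2 adjusted p = 5.82e-41). Pter, a phosphotriesterase-related gene, had 8.13 and 9.57 against 34.2 and 38.1 CPM (2.03, SE 0.18, edgeR adjusted p = 0.0507). Rit2, a neuronal small GTPase gene, had 172 and 154 against 61.9 and 69.6 CPM (-1.31, SE 0.13, edgeR adjusted p = 0.0574). For each of the 3 the crushed pools lay clear of the naïve pools.

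Between 3 D and 2 W after crush, with no naïve library in the contrast, several RGC transcripts fell. EdgeR called 10 genes lower (0.0441%) and 1 higher (0.00441%) of 22671. Slc17a6, whose log2 fold change over naïve was 0.01 at 3 D, fell from 66.8 and 87.4 CPM to 9.57 and 9.03 CPM (log2 fold change -3.05, SE 0.16, edgeR adjusted p = 0.00564). Sncg fell to 24.2 and 24 CPM (-2.30, SE 0.13, edgeR adjusted p = 0.00564), Nefm to 23.2 and 20 CPM (-2.27) and Nefl to 106 and 87.3 CPM (-2.20, edgeR adjusted p = 0.0065). The others were Nell2, Rgs4, Yrdc, Sbk1, Zfp280b and Gm20716. The higher gene was Elfn1 at 37.7 and 12 CPM (4.44, edgeR adjusted p = 0.0343). Summed RGC markers were at 241 and 238 CPM at 2 W, with a median of -2.25 against 3 D. Injury genes were lower at 2 W than at 3 D without a call: Sprr1a was at 5.55 and 7.12 CPM, Sox11 at 6.11 and 8.31 CPM, Atf3 at 38.4 and 30 CPM and Ecel1 at 34.3 and 31.8 CPM. Egr1 was at 28.9 and 31.3 CPM and Cdkn1a at 11.6 and 13.8 CPM. C1qb, C4b, Serpina3n and Gfap were at 39.8 and 33.8, 23.4 and 21, 17.6 and 19.7, and 52.6 and 41.6 CPM at 2 W, within or above the range of their 3 D pools, with female and male pools closer together than at 3 D for each of the 4.

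Set against retina 3 D after microbead injection in a fit of all 12 retina libraries, crushed retina had 1 gene higher (0.00405%) and 1 lower (0.00405%) of 24693 by edgeR, while 1072 had an unadjusted p under 0.05. The higher gene was Purb, which was at 0 in the crushed female pool and 449 CPM in the crushed male pool and at 0 in both glaucoma pools, and so rests on 1 pool. The lower gene was Dpm1, with 19.2 and 13.9 CPM in crushed and 59.8 and 85.4 CPM in glaucoma pools. The glaucoma pools lay far apart. The female pool, the shallowest of the retina at 19.9 M counts, had 18.8 CPM of Sprr1a, 64.3 of Ecel1, 23.2 of Sox11 and 74.3 of Atf3, near the crushed pools. The male pool had 1.96, 2.05, 5.47 and 28.1 CPM of the same genes. The summed RGC markers were 462 CPM in the female and 849 CPM in the male glaucoma pool, against 585 and 502 CPM in crushed pools. EdgeR called no difference between the injuries in these genes. The same fit of 12 libraries called 0 genes for crush over naïve, so the missing call cannot show that the injuries were alike.

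The response of the retina differed from that of the nerve. In a fit of 12 libraries of retina, UON and MON, the change from naïve to 3 D in retina differed from that in MON for 115 of 26136 genes (0.44%) and from that in UON for 15 (0.0574%). With the tissues of the same mice as a block, an alternative added after seeing the data, these were 110 and 9 genes, of which 89 and 8 were the same genes. Phgdh, the serine synthesis gene, differed by 2.50 (SE 0.42, edgeR adjusted p = 0.042, and 0.0536 with the block), with a log2 fold change of -0.92 in MON. Ecel1 differed from MON by 6.28 and missed the threshold (edgeR adjusted p = 0.0913). Hmox1 differed by -4.48 (SE 0.55, edgeR adjusted p = 0.00747) and rose in MON by 5.82, and Spp1, osteopontin, differed by -7.64 (SE 0.98, edgeR adjusted p = 0.01). The kinetochore gene Knstrn differed by -5.76 from MON (edgeR adjusted p = 0.00526) and by -6.10 from UON (edgeR adjusted p = 0.00852), having risen by 4.34 in MON and 4.67 in UON. No difference from MON was called for Atf3 (0.60, SE 0.54, edgeR adjusted p = 0.72), Chac1 (-0.09, SE 0.59, edgeR adjusted p = 1) or Cebpd (0.75, SE 0.34, edgeR adjusted p = 0.417).

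**Figure D5:**
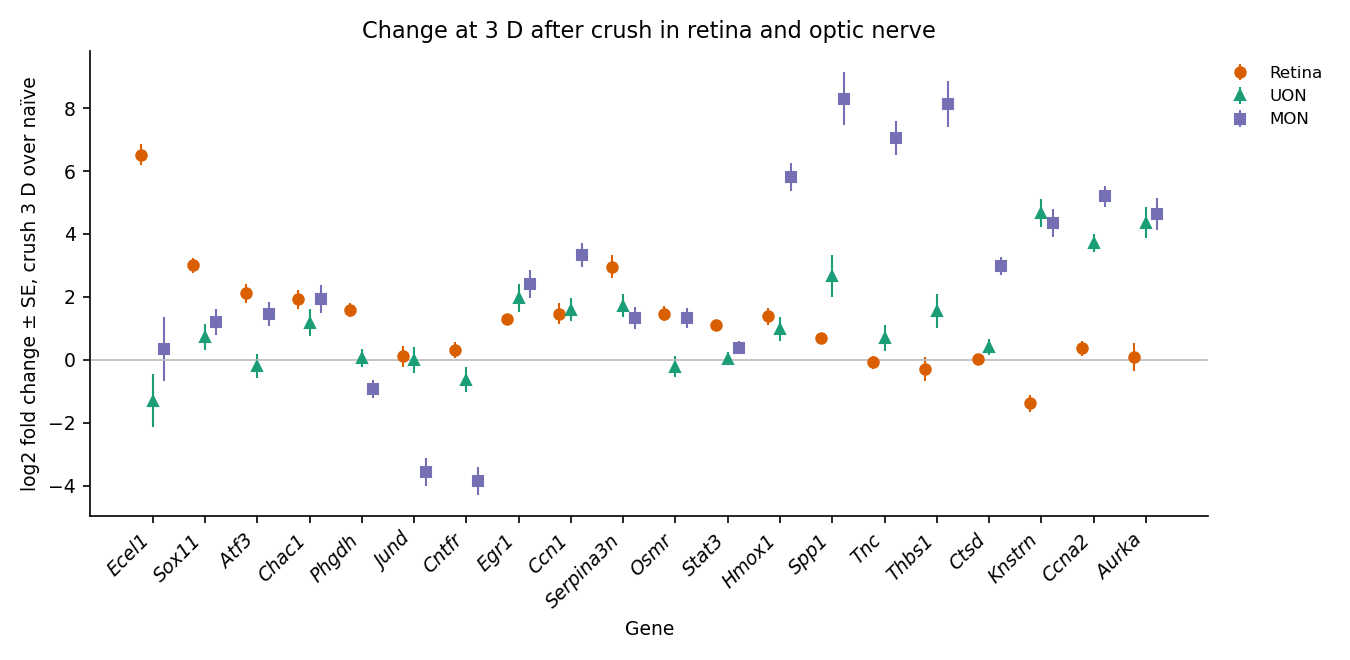
The log2 fold change of 3 D crush over naïve in retina, UON and MON with standard errors, the retina from the fit of naïve and crushed retina and the nerve from the fit of the 12 libraries. Knstrn is below 0 in retina and above 4 in UON and MON, and Ecel1 is at 6.52 in retina, 0.33 in MON and -1.30 in UON.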

How the data were processed

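Bulk RNA-seq was made from pooled total RNA with an ultra-low input kit and paired reads of 150 bases. HISAT2 (v2.2.1, genome GRCm38) and StringTie (v1.3.0, annotation Gencode M25) were the authors' aligner and assembler. The deposited estimated counts per gene are the authors' sums over transcripts by the count script of StringTie, without normalization, computed from coverage, so reads of overlapping genes can be split between them. The deposited FPKM are the authors' StringTie values, and 2 values just below 0 were set to 0. The strand setting is not given in the sources used here.

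Counts were tested with edgeR 4.0.16 (R 4.3.3; TMM, filterByExpr at 10 counts and 15 in total, quasi-likelihood F test, Benjamini-Hochberg adjustment over all genes tested) on 6 retina libraries (naïve, crush 3 D, crush 2 W) with sex as a term, which left 2 residual degrees of freedom and a biological coefficient of variation of 0.342. Calls needed both an adjusted p below 0.05 and a log2 difference larger than 1 in size. DESeq2 1.42.0 with the same terms, the study's own tool, was an alternative. Groups came from the sample titles. The 3 tissues share mice by the study's methods, and their female minus male differences correlated between tissues at -0.04 to 0.08 (Pearson's r across 26136 genes). With 1 female and 1 male library per tissue and treatment, this correlation cannot measure the effect of shared mice on a gene. The main fit of the tissues leaves the sharing of mice out, and the blocked fit is given beside it as an alternative. The table holds 55487 genes, and totals over all 36 libraries ran from 16.2 M to 78.1 M. Counting floors cover counting error only. With sex as a term, p-values measure the spread between pools that is left after a shared sex difference, and not the spread between mice.

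The 43 gene lists (569 symbols, all in the table), the groups and the motifs were chosen with earlier results of these data known. Named genes were called list members, the largest calls, the leading members of each list, genes the study names, and further members marked as not called. 1 list symbol had 2 gene identifiers, and the one with the higher level was used. Promoters were from RefSeq on GRCm38.p6. The scripts were run on simulated data with less spread between pools than in these data, as a check of the direction and size of changes and not of error rates. A withheld item is not reported here.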

Additional observations from a re-analysis of the deposited data

Results flagged for a closer look

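Differences between times and tissues were called for 27 values of list members and called genes, each by a test of the difference itself. From 3 D to 2 W after crush, Slc17a6 changed by -3.05, Sncg by -2.30, Nefm by -2.27 and Nefl by -2.20 on the log2 scale, and Elfn1 by 4.44.

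Of these values, 19 were differences between the retinal and the MON response to crush at 3 D (log2 fold change in retina minus that in MON). The retinal change was lower for the matrix and wound genes Thbs1 (-8.49), Spp1 (-7.64) and Tnc (-7.16), for the cell division genes Knstrn (-5.76), Ccna2 (-4.85), Aurka (-4.48) and Mcm2 (-2.62), and for the phagocyte and lysosome genes C3ar1 (-4.50), Lpl (-3.05), Ctsd (-2.97), Ctsb (-2.87) and Gusb (-2.65). It was also lower for Elfn1 (-6.47), Igf1 (-4.63), Hmox1 (-4.48) and Tm4sf1 (-2.29). It was higher for Cntfr (4.18), the receptor of CNTF, for Jund (3.70) and for Phgdh (2.50). Cntfr and Jund differ through MON, where they fell by 3.85 and 3.57, while both were not called in retina.

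Against UON the retinal change was lower for Knstrn (-6.10), Elfn1 (-6.04) and Ccna2 (-3.38). With the tissues of the same mice as a block, edgeR no longer called Phgdh against MON (adjusted p = 0.0536) or Elfn1 against UON (adjusted p = 0.064), and the other 20 differences between tissues stayed called. For Elfn1 in these comparisons the part of the counting across gene models was not tested.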

How the results depend on the processing

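The 4 genes called higher and 1 lower became 89 and 47 with DESeq2, 35 and 18 with no filter on low counts, 10 and 2 without the sex term, and 0 and 0 with all 12 retina libraries. They became 7 higher at a minimum of 1 CPM in 2 libraries and 2 lower with only the 4 libraries. Leaving out 1 library gave 14 to 52 higher and 15 to 32 lower. Fits with 1 of these libraries left out kept 1 pool in its group and so are no check on the 5 calls. Of the 5 genes, 4 stayed called with only the 4 libraries and 3 without the sex term. By DESeq2, alternatives added after seeing the data gave 73 to 93 higher and 33 to 78 lower with 1 library left out and 62 and 24 with all 12 libraries. From 3 D to 2 W, 1 higher and 10 lower became 35 and 123 with DESeq2 and 14 and 55 with no filter, and 11 to 25 and 14 to 68 with 1 library left out. Against glaucoma, 1 and 1 became 13 and 22 with DESeq2 and 3 and 2 with no filter, and 1 to 14 and 4 to 5 with 1 library left out. The 115 differences from MON became 1242 with DESeq2 and 857 with no filter, and 71 to 141 with 1 library left out. The 15 from UON became 214 with DESeq2, 9 with DESeq2's size factors in edgeR and 210 with no filter, and 20 to 28 with 1 library left out. The causes were not tested. Bcl2l1 ran from -1.86 without the naïve male pool to 2.01 without the naïve female pool, where it reversed from -0.33. Of 43 lists, 35 kept the sign of their median in every alternative. With a replicate block for the tissues of the same mice, the 15 from UON became 9 and the 115 from MON 110. The contrasts within retina share no mice and have no such block, and sex was a term of the fit. Differences smaller than 1 on the log2 scale were not called, by rule.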

Other observations

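Eif4e, the cap-binding translation factor gene, had 78.2 and 79.6 CPM in naïve and 169.8 and 235 CPM in crushed pools, while its deposited FPKM were 61.2 and 52.1 in naïve and 46.3 and 51.5 in crushed pools. The 2 measures therefore differ in direction, and DESeq2 on the counts called it higher (adjusted p = 9.16e-11). Other calls by DESeq2 that were named after their values were seen had non-overlapping pools: Pvalb, the calcium buffer parvalbumin, had 30.5 and 32.1 against 14.9 and 6.7 CPM, A2m, a protease inhibitor gene, 1.93 and 2.84 against 9.7 and 9.24 CPM, and Ube2l6, the conjugating enzyme for ISG15, 2.48 and 1.82 against 10.8 and 10.4 CPM.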
